A study of Mus musculus with 8 samples.

Results

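Nerve cells hand chemical signals to one another through transmitters that carriers load into vesicles and later clear from the extracellular space, and every growing cell takes up amino acids through related carriers. The genes described here are the mouse carriers of the families SLC1 (glutamate and small neutral amino acids), SLC3 and SLC7 (amino acid heteromers and cationic amino acids), SLC6 (GABA, glycine, monoamines, creatine and others), SLC17 and SLC18 (vesicular glutamate, and vesicular monoamines and acetylcholine) and SLC38 (sodium-coupled neutral amino acids, including glutamine). They were chosen by gene symbol, without Slc1a3 and Slc6a20a and with at least 80 counts summed over the libraries. Of 21165 rows in the count table, 67 carried such a symbol, 2 were left out by name, 22 held too few counts and 43 remained. One of the 43, Slc7a6os, is named for lying on the strand opposite Slc7a6 and is not a carrier.

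RNA was sequenced from the cortex of mouse embryos at stage E18.5, from 4 knockout (KO) embryos that lack the kinase NUAK1 in every cell and 4 wild-type (WT) embryos. The embryos came from a constitutive knockout line, so a change in the cortex cannot be told apart from one set elsewhere in the body, and the labels give 3 litters, with 2 males among the KO and 1 among the WT embryos. The libraries are called R1 to R4 within a genotype, and the column headings name no embryo, litter or sex. Counts of 4 Y-linked genes were 4889 in KO R1, 4752 in KO R2 and 6472 in WT R1, and at most 4 in each other library, which matches the labelled numbers of males. Sex leaves the litter of most libraries open, and no litters were assigned to libraries. The comparison asked which carriers differed between genotypes.

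The libraries held 9643711 to 27014858 counts. Values below are normalized counts, that is counts scaled to one common library size, unless a level per kb of exon is named. Nuak1 was at most 20.5 normalized counts in a KO library and at least 877 in a WT library, so each library carried the genotype of its label. Markers of projection neurons were abundant, with summed levels of 17674 to 27500. A pair of libraries stood apart. KO R1 held 9924 summed normalized counts of 9 meningeal fibroblast markers against at most 513 in any other library, with all 9 highest there, as were 10 of 11 endothelial and 7 of 7 microglial markers. WT R4 held the lowest projection neuron sum (17674 against 22810 to 27500) and the highest astrocyte sum (6542 against 3894 to 5595). It was lowest for 5 of 10 projection neuron markers and highest for 4 of 7 astrocyte markers. KO R1 was highest for 2 of these 7. Of 9 progenitor markers, WT R4 was lowest for 5 and highest for 2, Sox2 and Hes5. Results are therefore also given without these libraries. In tissue of mixed cells, fewer cells of a type and less RNA per cell cannot be told apart.

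The members spanned a wide range of levels, from abundant amino acid carriers to genes near the limit of detection. Levels per kb of exon set genes on one scale, with exon lengths from GENCODE M1 for the 42 members located once on NCBIM37. The glutamine carrier Slc38a2 was highest in WT, at 796 ± 155 normalized counts per kb (SD, n = 4), followed by the neutral amino acid carrier Slc6a15 at 731 ± 27.3 and the heteromer heavy chain Slc3a2 at 646 ± 34.7. The SD of Slc38a2 exceeded its distance from each of the other two, and Slc6a15 lay above Slc3a2 by more than the SD of either. Transmitter carriers came lower. The vesicular glutamate transporter Slc17a7 was at 304 ± 75.8 per kb. The astroglial GABA transporter Slc6a11 was at 198 ± 63.5 and the other vesicular glutamate transporter, Slc17a6, at 158 ± 28.7 per kb. At the low end were Slc6a13, at 1.501 ± 1.04, and Slc7a11, at 0.72 ± 0.66 per kb in WT.

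**Figure D1:**
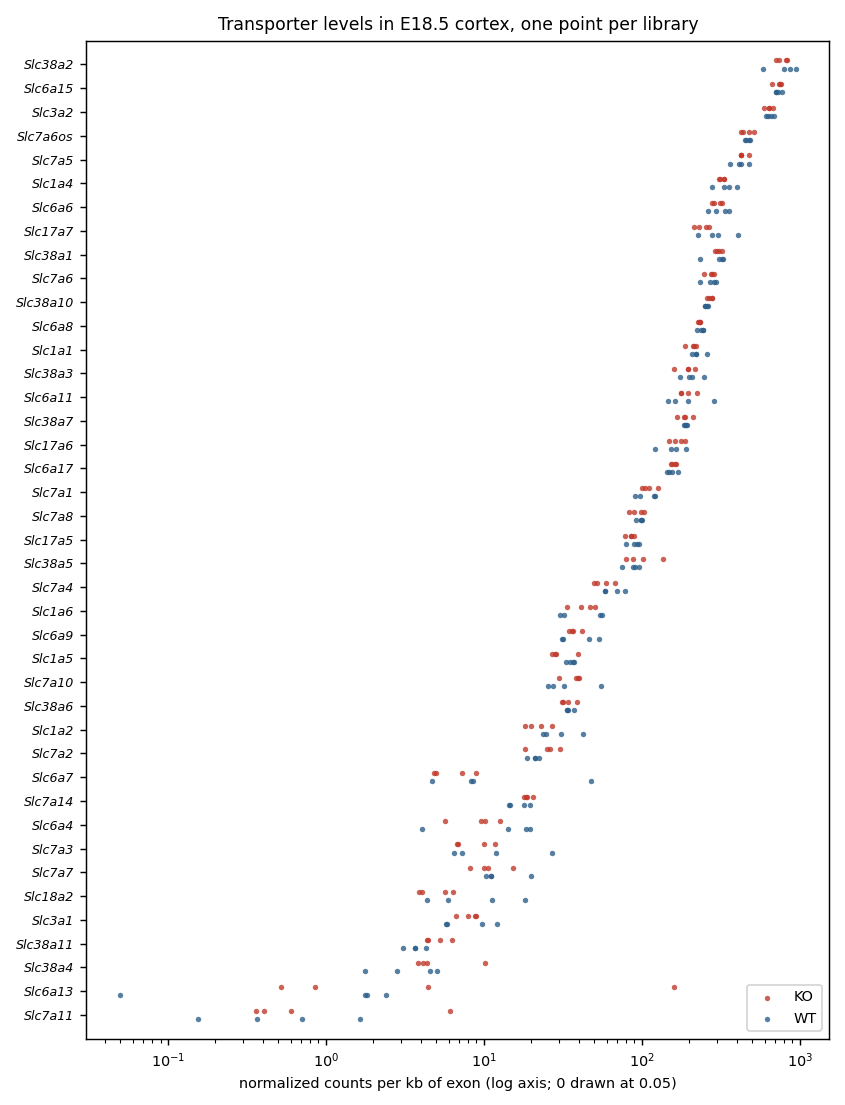
Normalized counts per kb of exon on a log axis for 41 of the 42 members located once, one point per library, KO in red and WT in blue, in order of the WT mean. The points of the genotypes lie among each other for nearly every gene, and single points of Slc6a13 and Slc6a7 lie far to the right of the others.

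Of the 43 members, 41 passed the filter on low counts and were tested, while Slc6a13 and Slc7a11 did not. By edgeR's quasi-likelihood test, 0 of the 41 passed an adjusted p of 0.05, where 9 of 12699 genes (0.0709%) did, and the smallest adjusted p of a member was 0.629. The DESeq2 Wald test called 0 of 41 as well, with 0.512% of all genes called and a smallest member adjusted p of 0.488. At an unadjusted p under 0.05, edgeR counted 2 of 41 members, beside 7.69% of all genes, and DESeq2 counted 4, beside 7.21%. Past both an absolute log2 fold change of 0.25 and an unadjusted p of 0.05, 0 members were higher in KO, beside 2.45% of all genes, and 2 were lower, Slc1a2 and Slc18a2, beside 1.8% of all genes. That share of lower members, 4.88%, rests on 2 genes.

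Most of the differences were small. The fold change was above 0 in KO for 13 members and below 0 for 28, while 45.6% of all genes tested lay above 0. The median log2 fold change of the members was -0.036 and that of all genes was -0.012. The members' median was -0.0022 without WT R4 and between -0.0496 and -0.0121 with any other single library left out. For 32 of 41 members the absolute log2 fold change was under 0.25, a smaller share than the 86.4% of all genes. The median standard error of a member was 0.12. In 1 member, Slc38a11, the 4 KO libraries lay above the 4 WT libraries, beside 2.64% of all genes, and in 0 members did they all lie below, beside 1.85%.

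**Figure D2:**
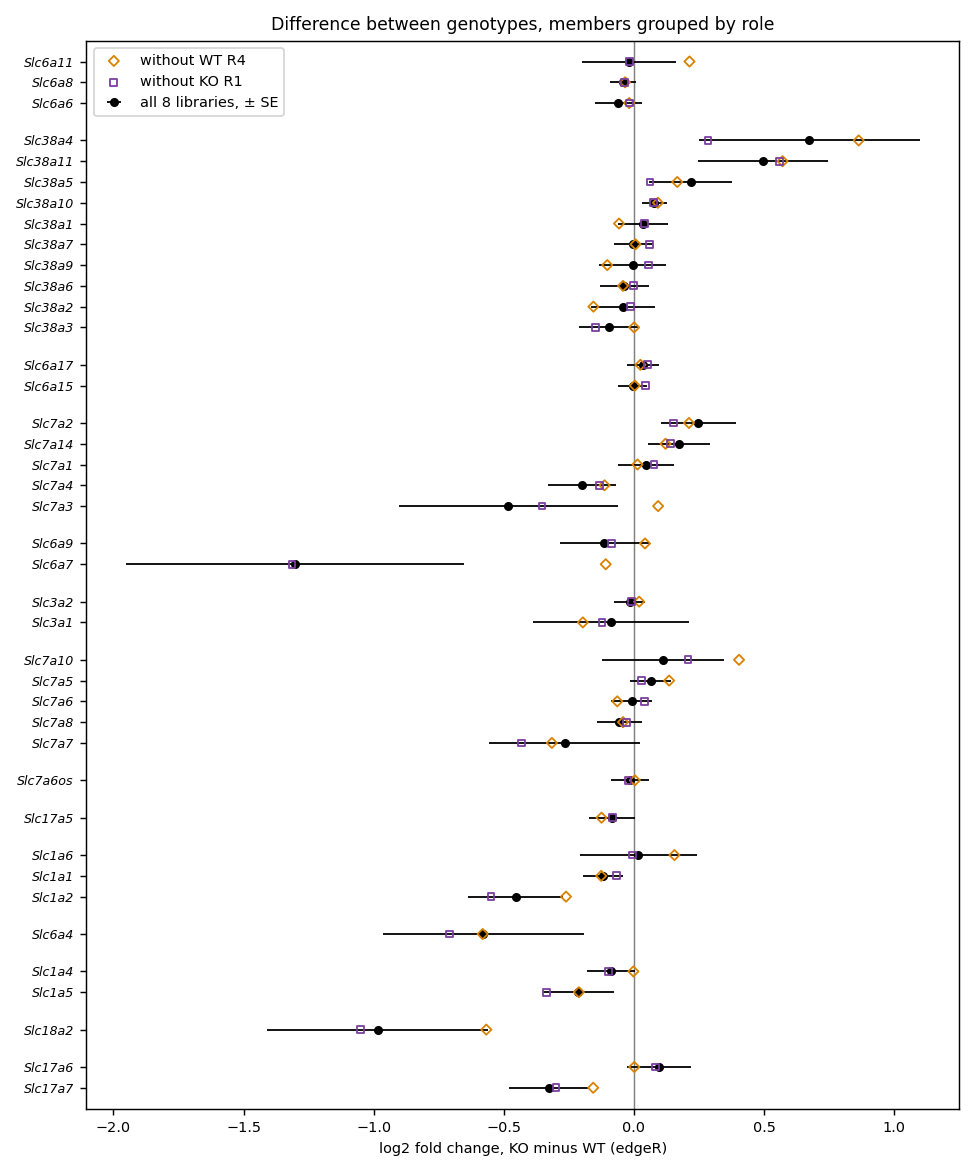
Log2 fold change, KO minus WT, from edgeR for 40 of the 41 members tested, grouped by role. Black points with bars are the fit of all libraries ± SE, orange diamonds the fit without WT R4 and purple squares the fit without KO R1. Slc6a7 moves from -1.30 to -0.11 without WT R4, and Slc38a4 from 0.67 to 0.28 without KO R1.

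Vesicular glutamate transporters fill synaptic vesicles with glutamate, Slc17a7 in most cortical neurons of the adult and Slc17a6 in thalamic and many early neurons. Slc17a7 was at 676, 745, 626 and 786 normalized counts in KO R1 to R4 and at 824, 664, 894 and 1196 in WT R1 to R4. The genotypes overlapped, with WT R4 far above the other libraries and WT R2 within the KO range. The log2 fold change was -0.33 (SE 0.15, edgeR unadjusted p = 0.052, adjusted p = 0.652), and -0.16 without WT R4. The DESeq2 Wald test with all libraries gave an unadjusted p of 0.0363 and an adjusted p of 0.630. Slc17a7 is on the list the study drew from these samples, which is no independent evidence of its direction.

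Slc17a6 was at 766, 643, 811 and 700 in KO and at 714, 822, 663 and 524 in WT. Here WT R4 was the lowest library, and the log2 fold change of 0.10 (SE 0.12) became 0.0012 without it.

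The share of Slc17a6 in the counts of this pair does not depend on the scaling of libraries. KO libraries averaged 50.8% ± 4.86 and WT libraries 43.7% ± 10.3 (SD, n = 4 per genotype). The WT shares ran from 30.5% in R4, with a 95% Wilson interval of 27.7 to 33.3%, to 55.3% in R2, whereas the KO shares ran from 46.3 to 56.5%. The genotypes overlapped, and the 2-sided exact permutation test gave p = 0.257 (adjusted p = 0.286 over 3 shares; the smallest p that 4 against 4 allows is 0.0286). The difference in share of 7.06 percentage points became 2.65 without WT R4 and 10.9 without WT R2. The exact permutation test gave p = 0.571 without WT R4 and p = 0.0571 without WT R2. With any other single library left out, the p of this test was 0.229 to 0.486. The third gene of the group, Slc17a8, held 74 counts in all and was not a member.

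The SLC1 glutamate transporters clear glutamate from the extracellular space. Slc1a2, the main astroglial one in the adult forebrain, was at 356, 240, 262 and 302 normalized counts in KO and at 408, 314, 326 and 556 in WT. KO R1 lay within the WT range, and the other KO libraries lay below every WT library. The log2 fold change was -0.45 (SE 0.18, edgeR unadjusted p = 0.0293, adjusted p = 0.629), and -0.26 (unadjusted p = 0.0932, adjusted p = 0.469) without WT R4. It was -0.55 (unadjusted p = 0.0162, adjusted p = 0.782) without KO R1 and -0.36 (unadjusted p = 0.0170, adjusted p = 0.341) without both WT R4 and KO R1. Slc1a2 is also on the study's list. The astrocyte marker sum was highest in WT R4, as were 4 of 7 astrocyte markers and Slc1a2 itself. The part of astrocyte content in the difference was not tested.

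The neuronal glutamate transporter Slc1a1 was the most abundant of this group, at 1161, 1303, 1319 and 1371 in KO and at 1369, 1587, 1279 and 1366 in WT. The genotypes overlapped and the log2 fold change was -0.12 (SE 0.08). For Slc1a6, a transporter best known from Purkinje cells, it was 0.02 (SE 0.23).

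The small neutral amino acid exchangers Slc1a4 and Slc1a5 carry serine, alanine and, for Slc1a5, glutamine. Slc1a4 was at 1312, 1204, 1236 and 1294 in KO and at 1410, 1096, 1307 and 1569 in WT, with both ends of the range in WT. Slc1a5 was at 164, 113, 119 and 117 in KO and at 138, 152, 156 and 147 in WT, so that KO R1 was the highest library and the other KO libraries the lowest. Its log2 fold change was -0.21 (edgeR unadjusted p = 0.148, adjusted p = 0.780) with all libraries and -0.34 (unadjusted p = 0.0126, adjusted p = 0.745) without KO R1.

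GABA transporters end inhibitory signals. Slc6a11, found mainly on astrocytes, was at 802, 716, 717 and 913 normalized counts in KO and at 793, 593, 663 and 1172 in WT. The genotypes overlapped, again with WT R4 highest. The log2 fold change was -0.02 (SE 0.18) with all libraries and 0.21 (SE 0.11) without WT R4.

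The taurine transporter Slc6a6 and the creatine transporter Slc6a8 varied less. Slc6a6 was at 1710, 1984, 1770 and 1924 in KO and at 1822, 1631, 2194 and 2069 in WT, and Slc6a8 ranged from 1174 to 1271 over all libraries, with log2 fold changes of -0.06 and -0.04. The groups overlapped for both.

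Slc6a13, a GABA and taurine transporter known from meninges and liver, was at 463 normalized counts in KO R1 and at 1.52, 2.48 and 12.8 in the other KO libraries. In WT it was at 5.14, 7.01, 5.28 and 0, where a count of 0 allows up to 5.07. Only KO R1 held an appreciable amount, the library in which the meningeal markers were also highest; their part in the value was not tested. The gene did not pass the filter, and no fold change is given.

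**Figure D3:**
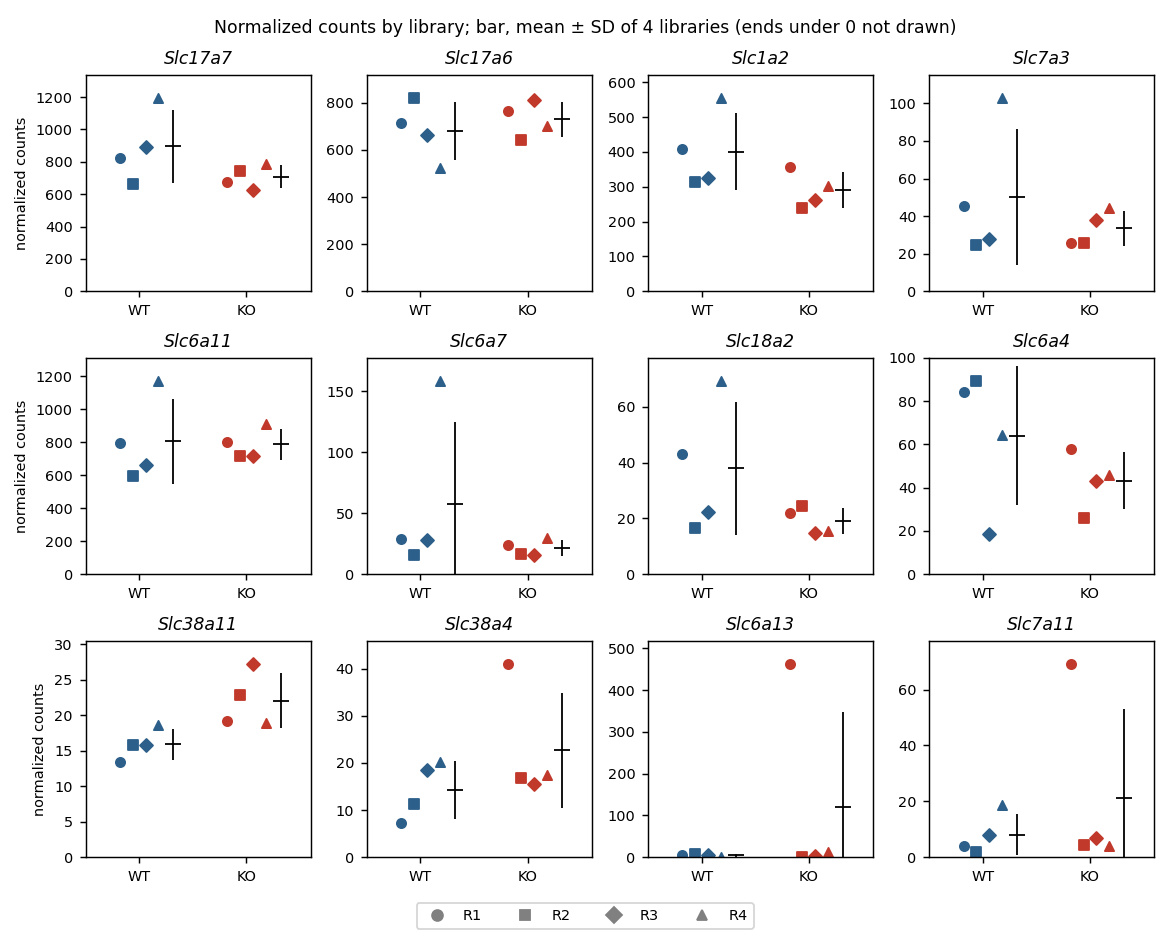
Normalized counts of 12 members in the WT (blue) and KO (red) libraries, with a marker shape for each of R1 to R4 and bars for the mean ± SD of 4 libraries. The WT R4 triangle is highest for Slc17a7, Slc1a2, Slc6a11, Slc6a7, Slc7a3 and Slc18a2 and lowest for Slc17a6, and the KO R1 circle is highest for Slc38a4, Slc6a13 and Slc7a11.

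The glycine transporter Slc6a9 and the proline transporter Slc6a7 both had their highest value in WT R4. Slc6a9 was at 186, 189, 179 and 216 in KO and at 238, 163, 161 and 277 in WT. Slc6a7 was at 24.3, 16.7, 16.1 and 29.7 in KO and at 28.8, 15.8, 27.7 and 159 in WT, so that 1 library carried the difference. Its log2 fold change was -1.30 (SE 0.65, edgeR unadjusted p = 0.0698) with all libraries and -0.11 (unadjusted p = 0.747) without WT R4. DESeq2 gave Slc6a7 an unadjusted p of 0.0248, and the gene is on the study's list.

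Monoamine carriers were scarce. The vesicular monoamine transporter Slc18a2 was at 21.8, 24.3, 14.9 and 15.5 in KO and at 43.2, 16.6, 22.5 and 69.3 in WT. WT R1 and R4 were above every KO library, and WT R2 and R3 were within the KO range. The log2 fold change was -0.98 (SE 0.42, edgeR unadjusted p = 0.0402, adjusted p = 0.633), and -0.57 (unadjusted p = 0.147) without WT R4.

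The serotonin transporter Slc6a4 was at 57.7, 25.8, 43.3 and 45.9 in KO and at 84.3, 89.4, 18.497 and 64.2 in WT. WT R3 was the lowest of all libraries and the other WT libraries were the highest, and the log2 fold change was -0.58 (SE 0.39, edgeR unadjusted p = 0.164). It was -0.87 without WT R3, with an unadjusted p under 0.05, and -0.36 without WT R2. Of 10 listed enzymes and carriers of monoamine and acetylcholine metabolism, 8 were matched by symbol and 4 were tested. Of these 4, 0 had an edgeR unadjusted p under 0.05 in either direction, beside 7.69% of all genes. Th, for catecholamine synthesis, was at most 2.56, and Tph2, for serotonin synthesis, ran from 12.8 to 33.8 with its highest value in WT R4.

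The SLC38 carriers supply neurons with glutamine and other neutral amino acids, and this was the largest group, with 10 members tested, 5 fold changes above 0 and 5 below. Slc38a2 was at 3417, 3850, 3792 and 3276 in KO and at 3663, 4006, 4361 and 2699 in WT, and its log2 fold change was -0.04 (SE 0.12). Both the highest and the lowest library were WT, with R4 lowest. Slc38a1, the other neuronal glutamine carrier, was likewise lowest in WT R4, at 1954 against 2440 to 2743 elsewhere. Slc38a3, which exports glutamine from astrocytes, was highest there, at 836 against 546 to 741.

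Slc38a1, Slc38a2 and Slc38a4 lie side by side on chromosome 15, at chr15:96401849-96473344, chr15:96517825-96530129 and chr15:96825254-96886387 (NCBIM37, all on the minus strand). Slc38a4 did not follow the other two in WT R4. It was at 41.0, 16.7, 15.5 and 17.5 in KO and at 7.19, 11.4, 18.497 and 20.3 in WT, with KO R1 far above the rest. Its log2 fold change was 0.67 (SE 0.42) with all libraries and 0.28 without KO R1. Slc38a5 was also highest in KO R1, at 307 against 169 to 229 elsewhere, and its log2 fold change went from 0.22 to 0.06 without that library.

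Slc38a11, a little-studied member, was the gene without overlap, at 19.2, 22.8, 27.2 and 18.9 in KO and at 13.4, 15.8, 15.9 and 18.6 in WT. The lowest KO library, R4, lay just above the highest WT library, also R4. The log2 fold change was 0.50 (SE 0.25, edgeR unadjusted p = 0.0735, adjusted p = 0.698). The remaining members, Slc38a6, Slc38a7, Slc38a9 and Slc38a10, had log2 fold changes from -0.04 to 0.08. Slc38a9, the lysosomal arginine sensor of the mTORC1 pathway, is split over 2 rows of the count table, and the second row, with 36 counts, was left out.

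**Figure D4:**
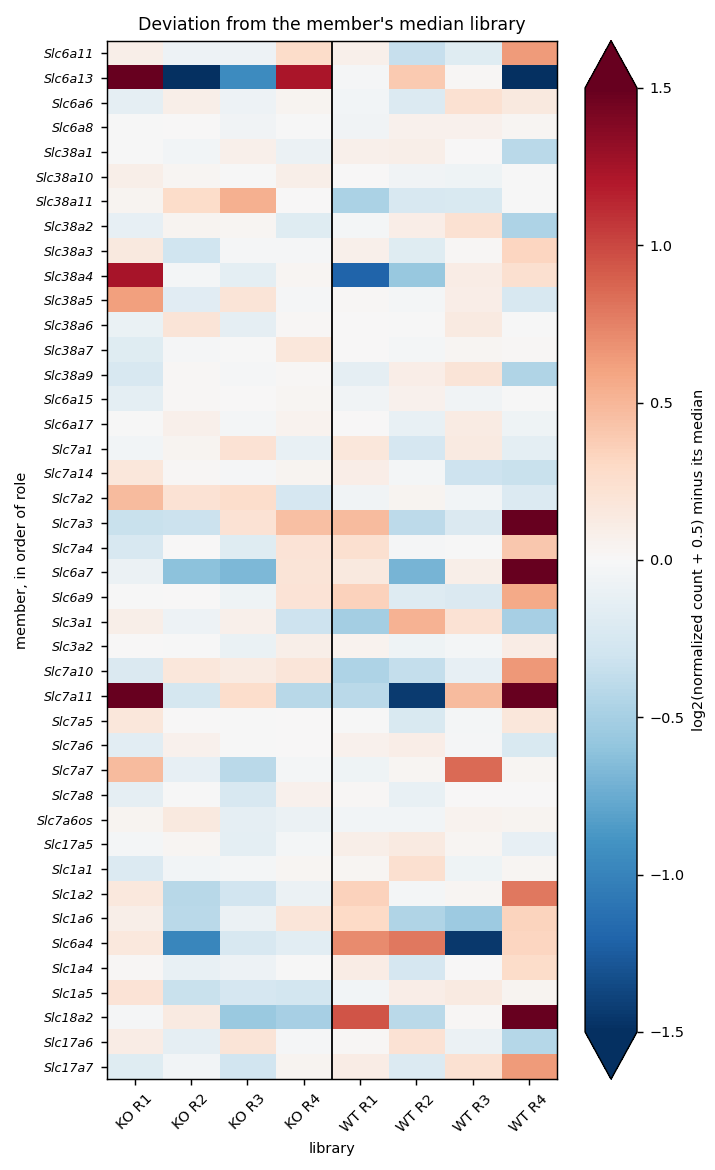
Log2(normalized count + 0.5) minus its median over the 8 libraries for 42 of the 43 members, in order of role; red is above and blue below the median, and the scale ends at 1.5 in both directions. WT R4 was highest in 15 of 41 members tested and lowest in 7, and KO R1 holds the strongest red for Slc6a13, Slc7a11 and Slc38a4.

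WT R4 was the highest library for 15 of the 41 members tested (36.6%), against 21.4% of all genes tested, and the lowest for 7 (17.1%), against 20.6%. Beside the members named, it was highest for Slc7a3, Slc7a4, Slc7a10, Slc7a5, Slc3a2, Slc1a4 and Slc1a6. Among the 11 genes of glutamate and GABA metabolism, 9 were also highest in WT R4. Of the 11, 2 had an edgeR unadjusted p under 0.05, both lower in KO, beside 7.69% of all genes. These were Gad2, a GABA-synthesizing enzyme (log2 fold change -0.25, edgeR adjusted p = 0.560), and Got1, an aspartate aminotransferase (-0.15, adjusted p = 0.645). Got1 was highest in WT R4 and Gad2 was not. Gad2 is also a marker of interneurons, whose 9 listed markers summed to 3134 to 3448 in KO and 3157 to 4267 in WT, and the part of interneuron content was not tested.

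Heteromeric transporters pair a heavy chain, Slc3a2 or Slc3a1, with a light chain that sets the substrate. Slc3a2 was at 1892, 1881, 1764 and 2013 in KO and at 1952, 1803, 1854 and 2034 in WT. Its partner for leucine and other large neutral amino acids, Slc7a5, was at 1669, 1492, 1485 and 1493 in KO and at 1488, 1267, 1457 and 1672 in WT. The genotypes overlapped for both, with log2 fold changes of -0.02 (SE 0.06) and 0.06 (SE 0.08).

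Slc3a2 made up 55.2% ± 1.85 of the pair's counts in KO, against 56.6% ± 1.62 for WT (SD, n = 4 per genotype), with p = 0.286 in the 2-sided exact permutation test (adjusted p = 0.286). The difference of -1.44 percentage points ranged from -2.19 to -0.72 with single libraries left out. The serine and glycine exchanger Slc7a10 was at 74.3, 97.3, 94.7 and 98.5 in KO and at 62.7, 67.5, 79.3 and 137 in WT. It had a log2 fold change of 0.11 with all libraries, 0.40 (edgeR unadjusted p = 0.0277) without WT R4 and 0.49 (unadjusted p = 0.00809, adjusted p = 0.287) without both WT R4 and KO R1. The other light chains tested, Slc7a6, Slc7a7 and Slc7a8, ranged from -0.27 to -0.01.

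**Figure D5:**
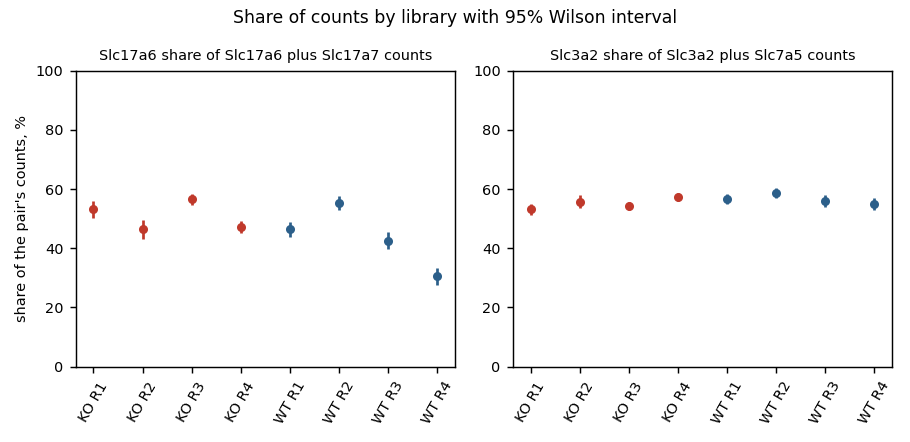
Share of the first gene in the summed counts of each pair, in percent, by library, with 95% Wilson intervals that cover counting error only; KO in red, WT in blue. The Slc17a6 share is lowest in WT R4 at 30.5%, while the Slc3a2 share stays between 53.1 and 58.7% in all 8 libraries.

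Slc7a11, the cystine and glutamate exchanger, was at 69.2, 4.56, 6.81 and 4.05 in KO and at 4.11, 1.75, 7.93 and 18.6 in WT. KO R1 was highest, WT R4 was next, and the gene did not pass the filter. It is a known target of the amino acid response, in which the factor ATF4 binds a C/EBP-ATF element. The octamer TGATGCAA or its reverse complement TTGCATCA, one form of this element, was sought on both strands of RefSeq promoter windows of GRCm38.p6, which run from 250 bases before to 50 bases after a gene's start. It was found in 294 of 32851 windows (0.895%). Of the members, 31 had a window, and 4 of their 45 windows (8.89%) held the octamer. These windows belonged to 3 members, Slc7a11, Slc1a4 and Slc7a7, and those of Slc7a7 overlap at the same octamer. Among 22 listed amino acid response genes with a window, 6 held the octamer. Because Slc7a11 was a known target beforehand, the members' share was not tested against that of all windows. The stretches around the octamer are printed to show its place, with the octamer in capitals. They hold upstream bases only, apart from the octamer itself.
Slc7a11 (chr3:50443646-50443705, minus strand): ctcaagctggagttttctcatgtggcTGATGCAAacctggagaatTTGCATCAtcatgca
Slc1a4 (chr11:20332710-20332743, minus strand): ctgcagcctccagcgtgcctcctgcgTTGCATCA
Slc7a7 (chr14:54417938-54417971, minus strand): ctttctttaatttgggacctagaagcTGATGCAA

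The Slc7a11 stretch holds the octamer in both orientations, beginning 66 and 47 bases before the start. A match describes these letters only, and binding was not measured. The 3 genes did not share a pattern across libraries: Slc1a4 had a log2 fold change of -0.09 (SE 0.09), Slc7a7, a light chain for cationic amino acids, had -0.27 (SE 0.29) with its highest value in WT R3, and Slc7a11 was not tested. Of 27 listed amino acid response genes, 24 were tested and 0 had an edgeR unadjusted p under 0.05 in either direction, beside 7.69% of all genes. Of 7 other amino acid carriers, 5 were tested, also with 0.

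Cationic amino acid transporters bring in arginine and lysine. Slc7a1 was at 792, 838, 948 and 751 in KO and at 913, 683, 896 and 736 in WT, and the genotypes overlapped widely, with a log2 fold change of 0.05 (SE 0.11). Slc7a3, the form best known from neurons, was at 25.6, 25.8, 37.7 and 44.5 in KO and at 45.2, 24.5, 27.7 and 103 in WT. Its log2 fold change of -0.48 (SE 0.42) became 0.09 without WT R4, where 1 library again set the direction. Slc7a2, Slc7a4 and Slc7a14 had 0.25, -0.20 and 0.17.

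The neutral amino acid carriers Slc6a15 and Slc6a17 varied little between libraries. Slc6a15 was at 2404, 2706, 2681 and 2729 in KO and at 2564, 2774, 2568 and 2647 in WT, with KO R1 lowest and a log2 fold change of -0.0042 (SE 0.06). Slc6a17, a vesicular carrier, had 0.03 (SE 0.06). Slc17a5, the lysosomal sialic acid carrier, was at 287, 300, 264 and 289 in KO and at 312, 322, 299 and 269 in WT, with overlap between the genotypes and a log2 fold change of -0.08 (SE 0.09). The heavy chain Slc3a1 had -0.09 (SE 0.30), and Slc7a6os had -0.02 (SE 0.07).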

How the data were processed

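The deposited table holds raw read counts per gene. The authors prepared polyA stranded libraries, sequenced 100-base read pairs and trimmed them (Cutadapt 1.13). They aligned the reads with TopHat2 2.0.13 (SAMtools 0.1.19, genome build mm9) and counted reads per gene with HTSeq-count. The annotation and the strand setting are not given in the sources used here, so overlapping genes may share reads.

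All genes were fitted together in edgeR 4.0.16 (R 4.3.3; TMM, filterByExpr, quasi-likelihood test, Benjamini-Hochberg adjustment), KO against WT, 4 libraries each, after a test on simulated data. SEs are the fold change divided by the root of F. DESeq2 1.42.0, without independent filtering, was an alternative, as were DESeq2 size factors, other filters and each library left out; a fit with sex as a covariate, taken from Y-linked counts, was added after seeing the data. Shares were compared by 2-sided exact permutation tests, with Wilson intervals that cover counting error only. Libraries differed beyond sampling noise (chi-square per degree of freedom at least 5.73). Named with a value in every library were members with unadjusted p under 0.05 or without overlap, the most abundant of each role, those on the study's list, and set transmitter and heteromer genes; Slc1a5, Slc6a11, Slc6a13, Slc7a3, Slc7a10 and Slc38a4 were added after their values were seen. Members and lists were chosen with earlier results of these data known. Results for 1 member, 1 share and 1 marker are not reported here, though counts over all members include that member.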

Additional observations from a re-analysis of the deposited data

Results flagged for a closer look

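Among 92 groups of 4 libraries, 12 held a library whose gap to the nearest other exceeded Dixon's 95% critical value, where chance gives about 1 in 20, or 4.6. Of these, 8 were in KO R1, the library with high meningeal, endothelial and microglial markers. KO R1 was the highest KO library for Slc6a13 (463 normalized counts against 1.52 to 12.8), Slc7a11 (69.2 against 4.05 to 6.81), Slc38a4 (41.0 against 15.5 to 17.5), Slc1a5 (164 against 113 to 119) and Slc7a5 (1669 against 1485 to 1493). It was the lowest for Slc6a15 (2404 against 2681 to 2729), Slc38a9 (299.8 against 350 to 357) and Slc7a10 (74.3 against 94.7 to 98.5). In WT, R4 was highest for Slc6a7 (159 against 15.8 to 28.8), R3 was highest for Slc38a6 (291 against 263 to 266) and Slc7a7 (44.9 against 23.6 to 25.4), and R2 was lowest for Slc7a8 (370 against 399 to 404). The part of other cell types in these values was not tested.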

How the results depend on the processing

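No member passed an adjusted p of 0.05 under any alternative run; the smallest adjusted p of a member named with a value in every library was 0.287, for Slc7a10 without both KO R1 and WT R4. The count of members with an unadjusted p under 0.05, and the count past the fold change as well, went from 2 (7.69% of all genes had such an unadjusted p) to 4 with DESeq2 (7.21%), to 4 without a filter on low counts (6.79%) and to 4 without both KO R1 and WT R4 (11.1%), an alternative chosen after seeing the data. With sex as a covariate, also chosen after seeing the data, they were 2 (5.15%), again Slc1a2 and Slc18a2. With single libraries left out they ranged from 0 (without KO R3, 5.16% of all genes) to 6 and from 0 to 5 (without WT R2, 8.12%), and without WT R4 the count was 1, Slc7a10, which was not counted with all libraries. There, 12.4% of all genes had such a p. Of 321 fits of single members named with a value in every library, 30 changed sign, over 11 members. Slc6a15 came to 0.0028 with DESeq2, 0.0024 with DESeq2 size factors, 0.0033 with at least 10 counts in every library, 0.0055 without a filter, 0.0122 with sex as a covariate and 0.0458 without both libraries. Without both, Slc17a6 came to -0.0164, Slc3a2 to 0.0213, Slc6a6 to 0.0186, Slc6a9 to 0.0610, Slc6a11 to 0.21, Slc7a3 to 0.21 and Slc7a10 to 0.49. With single libraries left out, the log2 fold change ran from 0.0012 to 0.20 for Slc17a6, from -0.16 to 0.0524 for Slc38a2, from -0.0496 to 0.0199 for Slc3a2, from -0.0224 to 0.0440 for Slc6a15, from -0.13 to 0.0131 for Slc6a6, from -0.22 to 0.0425 for Slc6a9, from -0.0296 to 0.11 for Slc7a1, from -0.0030 to 0.14 for Slc7a5, from -0.15 to 0.21 for Slc6a11, from -0.73 to 0.0928 for Slc7a3 and from -0.0186 to 0.40 for Slc7a10. The cause was not tested. No paired analysis was possible because the column headings give neither litter nor embryo.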
